A study of Mus musculus with 16 samples.

Results

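The homeostatic signature of microglia was followed through 9 of its genes, P2ry12, P2ry13, Gpr34, Cx3cr1, Selplg, Siglech, Fcrls, Tmem119 and Olfml3, chosen by symbol from the 56989 gene identifiers that the microglia and astrocyte data hold between them. Each symbol stood in 1 row of each of the 2 count tables, and all 9 genes passed the filter on low counts in both cell types. The data are RNA-seq of mouse microglia and mouse astrocytes, 16 libraries in all, 2 for each of 4 groups per cell type. The groups were AD CKO (genotype Rack1 CKO AD: conditional Rack1 knockout within an Alzheimer's disease, AD, model), CKO (the knockout alone), AD WT (the AD model with intact Rack1) and WT. Per the series text the knockout was made in microglia, and the astrocyte libraries carry the same 4 group names, so CKO there means that the mice lacked Rack1 in microglia. Which AD model and Cre driver were used, how old the mice were and how cells were purified is not given in the sources used here. They also do not say that the paired libraries of a group are separate animals, so p-values measure only the spread between these libraries, which may be technical.

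Microglia of the healthy adult brain keep a surveying state that depends on transforming growth factor beta and colony stimulating factor signals and on transcription factors such as PU.1 and SALL1. The signature genes mark that state and mostly encode cell-surface sensors: P2ry12 and P2ry13 encode receptors for ADP that guide microglial processes, Gpr34 a receptor for lysophosphatidylserine, Cx3cr1 the receptor for the neuronal chemokine fractalkine, and Selplg the selectin ligand PSGL-1. Siglech encodes a member of the Siglec family of lectins that signals through the adaptor DAP12. Fcrls encodes a scavenger receptor of the Fc receptor-like family known in mice. Tmem119 encodes a membrane protein used as a microglia marker, and Olfml3 a secreted olfactomedin-like matrix protein. In mouse models of amyloid disease the signature is known to decline in microglia near plaques while disease-associated genes such as Cst7 and Lpl rise.

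The genes are spread over several chromosomes (mouse build mm10, coordinates of GENCODE M21, all protein coding). Neighbours on chromosome 3 are P2ry12 (ENSMUSG00000036353; chromosome 3, 59216272 to 59262871, minus strand) and P2ry13 (ENSMUSG00000036362; chromosome 3, 59207892 to 59210882, minus strand), both within the gene Med12l on the other strand, and that chromosome also holds Fcrls (ENSMUSG00000015852; chromosome 3, 87250758 to 87263738, minus strand) and Olfml3 (ENSMUSG00000027848; chromosome 3, 103722222 to 103738001, minus strand). Selplg (ENSMUSG00000048163; chromosome 5, 113818536 to 113832644, minus strand) and Tmem119 (ENSMUSG00000054675; chromosome 5, 113793729 to 113800516, minus strand) lie close together on chromosome 5, and the remaining genes are Siglech (ENSMUSG00000051504; chromosome 7, 55768178 to 55778925, plus strand), Cx3cr1 (ENSMUSG00000052336; chromosome 9, 119901616 to 120069879, minus strand) and Gpr34 (ENSMUSG00000040229; chromosome X, 13632089 to 13640858, plus strand). P2ry12 shares 9 exonic bases with Med12l, and Cx3cr1 shares 78 with the antisense transcript Gm33858. Gm33858 had 2347 to 3198 counts per microglia library, so part of its count and that of Cx3cr1 may be the same reads. No other member shares exonic bases with another annotated gene. Whether the authors' counting used strand is not given in the sources used here.

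RefSeq promoters (build GRCm38.p6, 250 bases before to 50 bases after the gene start) were at hand for 6 of the 9 members, namely P2ry12, P2ry13, Cx3cr1, Siglech, Fcrls and Olfml3. On both strands, the letters GAGGAA, the core of sites for PU.1 and other ETS factors, stood in 3 of the 6, and in 28.3% of 32851 mouse promoters of that length. TGTGGT, a RUNX core, stood in 4 of the 6, against 16.8% of all promoters, TATAAA in 1 of the 6, against 13.6%, and TGANTCA, an AP-1 site, in 0 of the 6, against 7.81%. These matches do not overlap each other and are a description of the letters only. The 3 promoters with the ETS core are shown because their genes have the most unlike values below: Siglech fell most with the knockout, Fcrls alone rose with the AD model where Rack1 was intact, and P2ry13 alone did not pass the test for the knockout outside the AD model. Capitals mark GAGGAA or its reverse complement, and each sequence runs 5′ to 3′ on the strand of its gene.
Siglech, chr7:55767934-55768233, plus strand: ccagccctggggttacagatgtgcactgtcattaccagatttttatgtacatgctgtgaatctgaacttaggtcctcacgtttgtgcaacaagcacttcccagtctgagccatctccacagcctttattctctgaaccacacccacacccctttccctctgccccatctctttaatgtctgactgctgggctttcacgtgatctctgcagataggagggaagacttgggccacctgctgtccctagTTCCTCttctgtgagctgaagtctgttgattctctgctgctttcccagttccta
Fcrls, chr3:87263475-87263774, minus strand: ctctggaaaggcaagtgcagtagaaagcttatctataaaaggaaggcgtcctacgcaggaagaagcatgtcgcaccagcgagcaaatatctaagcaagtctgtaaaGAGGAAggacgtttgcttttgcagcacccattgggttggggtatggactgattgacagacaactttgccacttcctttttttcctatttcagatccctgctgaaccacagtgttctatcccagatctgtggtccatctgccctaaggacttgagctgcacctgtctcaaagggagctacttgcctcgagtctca
P2ry13, chr3:59210833-59211132, minus strand: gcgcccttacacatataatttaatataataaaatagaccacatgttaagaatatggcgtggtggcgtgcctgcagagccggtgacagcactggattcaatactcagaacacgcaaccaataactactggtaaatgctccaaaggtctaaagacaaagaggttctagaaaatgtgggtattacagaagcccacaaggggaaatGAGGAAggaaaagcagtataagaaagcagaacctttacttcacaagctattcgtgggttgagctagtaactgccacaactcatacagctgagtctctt
The ETS core starts 4 bases before the gene start in Siglech, 144 before it in Fcrls and 48 before it in P2ry13.

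The microglia libraries held 27741882 to 33933068 counts each and the astrocyte libraries 29615853 to 35851170. Levels are given in CPM, that is counts relative to the library total after TMM scaling. In the microglia libraries 10 microglia markers that are no members summed to 33192 to 50138 CPM, 8 astrocyte markers to 305 to 428 CPM and 8 oligodendrocyte markers to 2265 to 8618 CPM. The astrocyte libraries were more mixed, with astrocyte markers at 8781 to 20937 CPM, oligodendrocyte markers at 6722 to 18819 CPM and microglia markers at 515 to 2296 CPM. Rack1, the targeted gene, had 47.2 and 47.8 CPM in AD CKO and 40.4 and 42.0 CPM in CKO microglia, against 113 and 115 CPM in AD WT and 98.1 and 95.2 CPM in WT microglia, lower in every library labelled as knockout. In bulk libraries fewer cells of a type and less RNA per cell cannot be told apart. The same markers and a list of 20 pan-myeloid genes (such as C1qa, Ctss, Spi1 and Ptprc, none of them a member) are therefore given beside the results. That list also holds Tyrobp, named below as a partner of Siglech, and the microglia markers Aif1, C1qa, C1qb, C1qc, Ctss and Itgam.

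All 9 members were abundant in microglia. Per kilobase of the principal transcript, Selplg (2599 ± 78.2 CPM per kb in WT, SD, n = 2) and P2ry12 (2445 ± 26.0) were highest, followed by Tmem119 (1753 ± 135), Gpr34 (1308 ± 25.7) and Fcrls (1199.8 ± 46.3). Siglech (904 ± 20.7), P2ry13 (903 ± 4.47) and Cx3cr1 (889.9 ± 11.5) came next at levels that did not differ beyond the spread of Siglech, and Olfml3 was lowest (409.9 ± 24.1 CPM per kb, with an annotated transcript of 5465 bases). Together the 9 genes summed to 19543 and 19342 CPM in AD CKO, 19807 and 19977 CPM in CKO, 24762 and 24942 CPM in AD WT and 29991 and 31093 CPM in WT microglia. The sum was lowest in the libraries with the knockout and highest in WT, with AD WT between them and no overlap of AD WT with either.

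CKO against WT microglia gives the difference with the knockout outside the AD model. Of the 9 genes 8 fell and P2ry13 did not pass the test; the fall ran from −0.11 for Gpr34 to −1.96 for Siglech on the log2 scale, and those of P2ry12 and Gpr34 reversed when the libraries were scaled to pan-myeloid genes. Genes count as changed at an adjusted p under 0.05 by edgeR's quasi-likelihood test with Benjamini-Hochberg adjustment over all 17318 genes tested. Of all 17318 genes tested, 17.7% were called higher and 15.9% lower. Among the 238 that like every member averaged 500 CPM or more, 23.5% were called higher and 52.5% lower. Libraries of the groups did not overlap for 64.3% of all genes and for 9 of the 9 members. Values in parentheses after a gene are log2 fold changes ± SE. The median member stood at −0.76, against 0.04 over all genes tested.

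**Figure D1:**
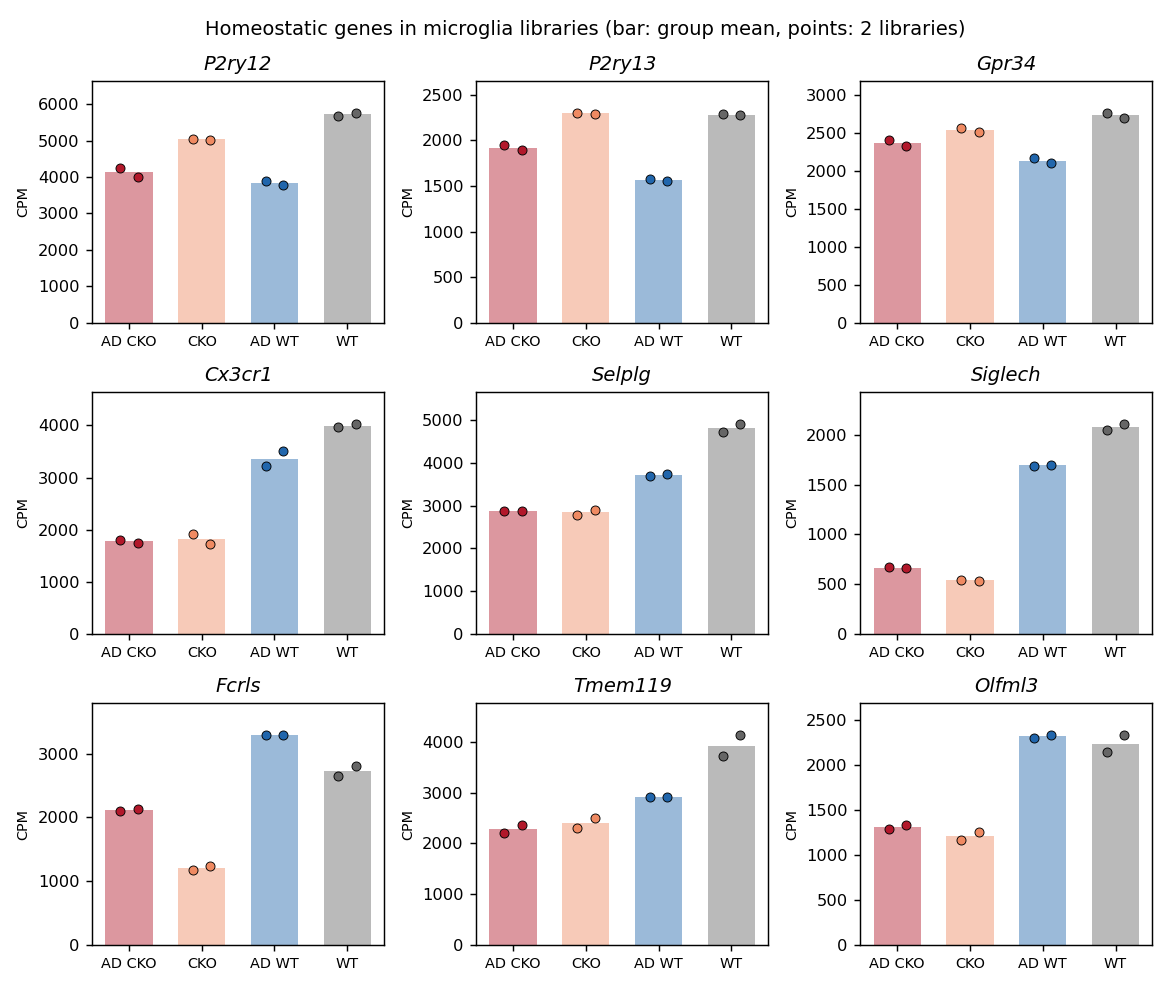
CPM of the 9 homeostatic genes in microglia, in 4 groups of 2 libraries; bars are group means, points are libraries, and each panel has its own axis from 0. Siglech, Cx3cr1, Olfml3, Selplg, Tmem119 and Fcrls are lower in every knockout library than in every library with intact Rack1, while P2ry12, P2ry13 and Gpr34 are lowest in AD WT.

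The lectin and scavenger receptor genes had the steepest falls. Siglech had 672 and 657 CPM in AD CKO, 539 and 533 CPM in CKO, 1689 and 1696 CPM in AD WT and 2046 and 2113 CPM in WT microglia. Its knockout libraries stood far below all others, and CKO differed from WT by a log2 fold change of −1.96 ± 0.04 (adjusted p = 7.63e-25). Fcrls had 2096 and 2134 CPM in AD CKO, 1177 and 1231 CPM in CKO, 3294 and 3299 CPM in AD WT and 2653 and 2802 CPM in WT microglia. CKO was the lowest group and AD WT the highest, with no overlap between any groups, and CKO differed from WT by a log2 fold change of −1.18 ± 0.03 (adjusted p = 1.98e-20). Tyrobp, whose product DAP12 carries the signal of Siglec-H, fell as well (−0.51 ± 0.04).

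The chemokine receptor and adhesion genes fell by less than Siglech. Cx3cr1 had 1804 and 1741 CPM in AD CKO, 1919.7 and 1714 CPM in CKO, 3219 and 3508 CPM in AD WT and 3962 and 4035 CPM in WT microglia. The knockout libraries lay at much the same level whether or not the AD model was present, and CKO differed from WT by a log2 fold change of −1.14 ± 0.05 (adjusted p = 7.94e-09). Selplg had 2866 and 2885 CPM in AD CKO, 2786 and 2897 CPM in CKO, 3708 and 3745 CPM in AD WT and 4718 and 4924 CPM in WT microglia, a log2 fold change of CKO over WT of −0.76 ± 0.03 (adjusted p = 5.85e-17). The ligand gene Cx3cl1, mainly known from neurons, rose in the same libraries (0.73 ± 0.16). The 8 neuron markers summed to 21.4 to 23.9 CPM in CKO and 9.71 to 10.3 CPM in WT there, and their part in the rise was not tested.

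The membrane and matrix markers fell too. Tmem119 had 2202 and 2356 CPM in AD CKO, 2304 and 2508 CPM in CKO, 2909.7 and 2912 CPM in AD WT and 3718 and 4145 CPM in WT microglia, and CKO differed from WT by a log2 fold change of −0.71 ± 0.06 (adjusted p = 6.55e-06). Olfml3 had 1295 and 1333 CPM in AD CKO, 1168 and 1259 CPM in CKO, 2302 and 2339.7 CPM in AD WT and 2147 and 2333 CPM in WT microglia, and CKO differed from WT by a log2 fold change of −0.88 ± 0.04 (adjusted p = 1.93e-14). For Olfml3 all knockout libraries lay below all libraries with intact Rack1, where AD WT and WT overlapped.

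The receptors of the P2Y family and their relative behaved differently. P2ry12, the member with the highest CPM, had 4247 and 4015 CPM in AD CKO, 5041 and 5033 CPM in CKO, 3897 and 3791 CPM in AD WT and 5689 and 5775 CPM in WT microglia, and CKO differed from WT by a log2 fold change of −0.19 ± 0.03 (adjusted p = 2.87e-05). P2ry13 had 1951 and 1893 CPM in AD CKO, 2307 and 2291 CPM in CKO, 1576 and 1552 CPM in AD WT and 2290.2 and 2274 CPM in WT microglia, and CKO and WT differed by less than the standard error (0.01 ± 0.03, adjusted p = 0.848). Gpr34 had 2410.3 and 2328 CPM in AD CKO, 2566 and 2510.5 CPM in CKO, 2165.8 and 2099 CPM in AD WT and 2769 and 2693 CPM in WT microglia, a log2 fold change of CKO over WT of −0.11 ± 0.03 (adjusted p = 0.0147). In all 3 genes AD WT was the lowest group. Scaled to the pan-myeloid genes P2ry12 and Gpr34 stood at 0.02 ± 0.04 (adjusted p = 0.660) and 0.10 ± 0.04 (adjusted p = 0.0347), and P2ry13 then stood at 0.22 ± 0.04 (adjusted p = 2.42e-05). Without CKO replicate 2 or WT replicate 1 the call of Gpr34 was lost (−0.092 and −0.087).

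Markers of other cells moved in the same comparison. The pan-myeloid genes summed to 34192 and 36267 CPM in CKO and 38783 and 41276 CPM in WT microglia, and 13 of the 20 fell while 2 rose, with a median of −0.22. The 10 microglia markers summed to 33192 to 34558.5 CPM in CKO and 48114 to 50138 CPM in WT, and 7 fell while 2 rose. The 8 oligodendrocyte markers summed to 8223 to 8618 CPM in CKO and 3143 to 3284 CPM in WT, and the 8 border macrophage markers to 515 to 517 CPM in CKO and 212 to 213 CPM in WT, with none of either list at 0. Neutrophil markers summed to 598 CPM in CKO and 218 to 237 CPM in WT, and astrocyte markers to 404 to 407 CPM in CKO and 325 to 327 CPM in WT. Monocyte markers summed to 107 to 111 CPM in CKO and 62.2 to 66.1 CPM in WT, and endothelial markers to 354 CPM in CKO and 305 to 309 CPM in WT. The 12 immediate early and dissociation genes summed to 4194 to 4498 CPM in CKO and 7201 to 7921 CPM in WT. The part of these markers and genes in the falls was not tested. Scaling to the pan-myeloid genes adjusts for the level of that list alone. On that scale the other 6 falls remained, from −0.50 ± 0.04 (adjusted p = 4.28e-11) for Tmem119 to −1.75 ± 0.04 (adjusted p = 4.02e-24) for Siglech. The median of all genes then moved to 0.25.

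AD WT against WT microglia gives the difference with the AD model where Rack1 was intact. Here 7 members fell, Fcrls rose and Olfml3 did not pass (0.05 ± 0.04, adjusted p = 0.443). Of all 17318 genes tested, 10.7% were called higher and 8.62% lower. Among the 238 that like every member averaged 500 CPM or more, 37.4% were called higher and 35.3% lower. Libraries of the groups did not overlap for 57% of all genes and for 8 of the 9 members. The order of the members was not that of the knockout. The ADP receptor genes fell most, P2ry12 with a log2 fold change of −0.58 ± 0.03 (adjusted p = 8.07e-14) and P2ry13 with −0.55 ± 0.03 (adjusted p = 4.55e-13), while Siglech fell by less (−0.30 ± 0.03, adjusted p = 1.99e-07). Tmem119 (−0.43 ± 0.06, adjusted p = 4.93e-04), Selplg (−0.37 ± 0.03, adjusted p = 7.16e-10) and Gpr34 (−0.36 ± 0.03, adjusted p = 3.19e-09) lay between. The fall of Cx3cr1 was the least firm, at −0.25 ± 0.05 (adjusted p = 0.00580), and its call was lost without WT replicate 1 (−0.26) or WT replicate 2 (−0.23) and with a replicate block (−0.25).

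Fcrls went the other way, with 3297 ± 3.38 CPM in AD WT and 2727 ± 105 CPM in WT microglia (SD, n = 2), a log2 fold change of 0.27 ± 0.03 (adjusted p = 7.46e-07). It was the only member that rose in the AD model with Rack1 intact, also with RLE factors and when scaled to the pan-myeloid genes. The pan-myeloid genes split in this comparison (6 up and 7 down of 20, median 0.02), and scaling to them kept all 8 calls. Microglia markers summed to 48038 to 48100.1 CPM in AD WT and 48114 to 50138 CPM in WT. Endothelial markers, all 6 of which rose, summed to 543 to 544 CPM in AD WT and 305 to 309 CPM in WT. Neutrophil markers, also with all 6 up, summed to 422 to 426 CPM in AD WT and 218 to 237 CPM in WT. Astrocyte markers summed to 416 to 428 CPM in AD WT and 325 to 327 CPM in WT. Of the 12 immediate early and dissociation genes 9 rose, and they summed to 9190.0 to 9228 CPM in AD WT and 7201 to 7921 CPM in WT. The part of these markers in the members' changes was not tested. All 20 disease-associated genes rose at the same time, with a median of 1.55 and Cst7 at 2.00 ± 0.04.

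AD CKO against AD WT microglia gives the difference with the knockout within the AD model. All 9 members changed, in both directions: 6 fell and the lipid- and ADP-receptor genes P2ry12, P2ry13 and Gpr34 rose. Of all 17318 genes tested, 17% were called higher and 15% lower. Among the 238 that like every member averaged 500 CPM or more, 30.7% were called higher and 40.3% lower. Libraries of the groups did not overlap for 65.5% of all genes and for 9 of the 9 members. Siglech again fell most (−1.35 ± 0.04, adjusted p = 3.65e-21), followed by Cx3cr1 (−0.92 ± 0.05, adjusted p = 8.30e-08), Olfml3 (−0.82 ± 0.04, adjusted p = 1.40e-13) and Fcrls (−0.64 ± 0.03, adjusted p = 2.62e-14). Selplg (−0.37 ± 0.03, adjusted p = 3.73e-10) and Tmem119 (−0.35 ± 0.06, adjusted p = 0.00115) fell least.

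P2ry13 had 1922 ± 41.1 CPM in AD CKO and 1564 ± 17.4 CPM in AD WT microglia (SD, n = 2), a log2 fold change of 0.30 ± 0.03 (adjusted p = 3.93e-08). Gpr34 (0.15 ± 0.03, adjusted p = 7.50e-04) and P2ry12 (0.10 ± 0.03, adjusted p = 0.0125) rose by less. These 3 genes also rose when scaled to the pan-myeloid genes, with P2ry13 at 0.34 ± 0.04 (adjusted p = 2.52e-08), Gpr34 at 0.20 ± 0.04 (adjusted p = 2.13e-04) and P2ry12 at 0.15 ± 0.04 (adjusted p = 0.00165). The call of P2ry12 was lost with no filter on low counts (0.09) and without AD CKO replicate 1 (0.047), CKO replicate 1 (0.087) or AD WT replicate 2 (0.086). Pan-myeloid genes summed to 38998 and 41625 CPM in AD CKO and 42242 and 42075 CPM in AD WT, with a median change of −0.03. The 10 microglia markers summed to 38501 to 40200 CPM in AD CKO and 48038 to 48100.1 CPM in AD WT, with 2 up and 2 down. Oligodendrocyte markers here were lower with the knockout (2265 to 2317 CPM in AD CKO and 3751 to 3755 CPM in AD WT), the opposite of CKO against WT, and border macrophage markers higher (406 to 408 CPM in AD CKO and 181 to 182 CPM in AD WT). Immediate early and dissociation genes summed to 4821 to 5118 CPM in AD CKO and 9190.0 to 9228 CPM in AD WT. Neutrophil markers summed to 262 to 280 CPM in AD CKO and 422 to 426 CPM in AD WT, endothelial markers to 384 to 386 CPM in AD CKO and 543 to 544 CPM in AD WT, and astrocyte markers to 305 to 311 CPM in AD CKO and 416 to 428 CPM in AD WT. The part of these markers in the members' changes was not tested.

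**Figure D2:**
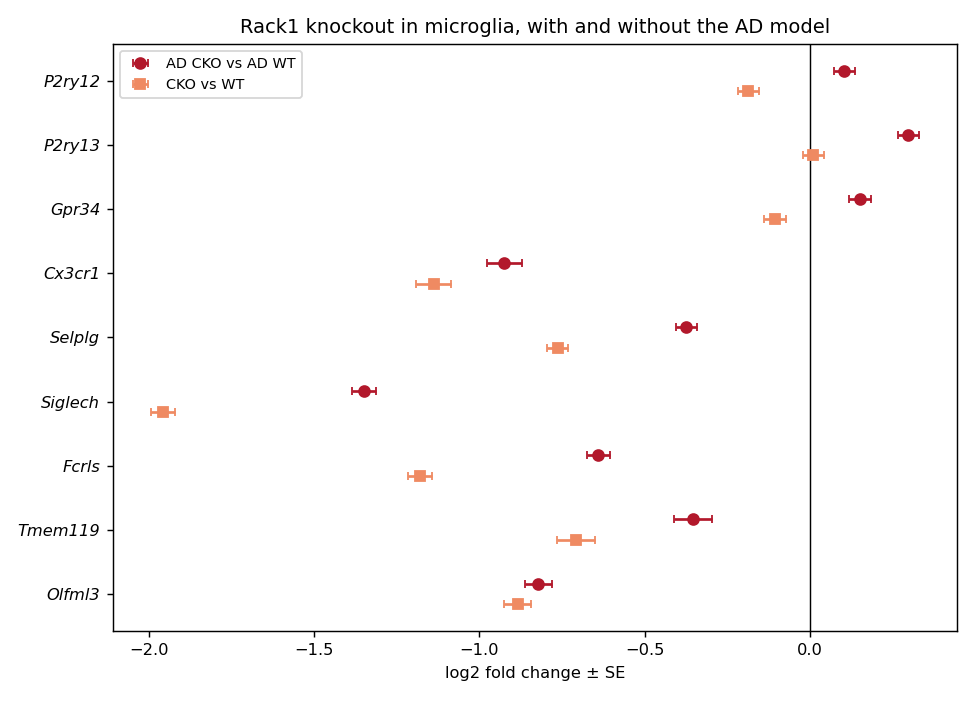
Log2 fold changes ± SE of the 9 genes with the Rack1 knockout in microglia, within the AD model (circles) and without it (squares). Siglech is farthest left in both, and P2ry12, P2ry13 and Gpr34 lie right of 0 within the AD model.

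AD CKO against CKO microglia gives the difference with the AD model where Rack1 was knocked out. P2ry12 (−0.29 ± 0.03, adjusted p = 1.12e-07), P2ry13 (−0.26 ± 0.03, adjusted p = 1.05e-06) and Gpr34 (−0.10 ± 0.03, adjusted p = 0.0426) fell, Fcrls (0.81 ± 0.03, adjusted p = 2.69e-16) and Siglech (0.31 ± 0.04, adjusted p = 1.59e-07) rose, and Cx3cr1 (−0.04 ± 0.05), Selplg (0.02 ± 0.03), Tmem119 (−0.08 ± 0.06) and Olfml3 (0.11 ± 0.04) did not pass. Of all 17318 genes tested, 7.73% were called higher and 6.92% lower. Among the 238 that like every member averaged 500 CPM or more, 48.3% were called higher and 13% lower. Libraries of the groups did not overlap for 52.7% of all genes and for 6 of the 9 members. The call of Gpr34 was lost with RLE factors and DESeq2 (both −0.087), with no filter (−0.068), with the compared groups alone (−0.11), with an offset for transcript length (−0.088) and without any 1 of AD CKO replicate 1 (−0.10) or 2 (−0.072), CKO replicate 1 (−0.06) or 2 (−0.12) and AD WT replicate 1 or 2 (both −0.097). Olfml3 passed the test in several other settings, among them RLE factors (0.13) and no filter (0.15). Fcrls rose with the AD model on both backgrounds, and P2ry12, P2ry13 and Gpr34 fell on both, with WT and CKO libraries as separate baselines. Disease-associated genes rose in 19 of 20 cases, with Cst7 at 2.25 ± 0.04. Relative to the pan-myeloid genes, whose median was 0.17, Selplg stood at −0.12 ± 0.03 (adjusted p = 0.00895), Tmem119 at −0.22 ± 0.04 (adjusted p = 2.10e-04) and Gpr34 at −0.24 ± 0.04 (adjusted p = 4.77e-05), with the median of all genes at −0.14. The rise of Siglech was then smaller, at 0.17 ± 0.04 (adjusted p = 0.00233). The 10 microglia markers summed to 38501 to 40200 CPM in AD CKO and 33192 to 34558.5 CPM in CKO, with 5 up and 1 down. Oligodendrocyte markers summed to 2265 to 2317 CPM in AD CKO and 8223 to 8618 CPM in CKO, with 7 of 8 down and a median of −1.91. All 6 neutrophil markers fell, with sums of 262 to 280 CPM in AD CKO and 598 CPM in CKO, and all 4 monocyte markers fell, with sums of 62.5 to 64.7 CPM in AD CKO and 107 to 111 CPM in CKO. Astrocyte markers summed to 305 to 311 CPM in AD CKO and 404 to 407 CPM in CKO, and neuron markers to 10.2 to 11.4 CPM in AD CKO and 21.4 to 23.9 CPM in CKO. The part of these markers in the members' changes was not tested.

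The interaction tests directly whether the knockout changed a gene differently within the AD model, as AD CKO vs AD WT minus CKO vs WT. It was positive for all 9 members and passed for 7. Of all 17318 genes tested, 5.53% were called higher and 7.19% lower. Among the 238 that like every member averaged 500 CPM or more, 40.3% were called higher and 16.8% lower. It was largest for Siglech (0.61 ± 0.05, adjusted p = 5.42e-10) and Fcrls (0.54 ± 0.05, adjusted p = 4.94e-09), whose falls were smaller within the AD model. Selplg (0.39 ± 0.05, adjusted p = 4.91e-07), Tmem119 (0.36 ± 0.08, adjusted p = 0.0205), P2ry12 (0.29 ± 0.04, adjusted p = 3.46e-05), P2ry13 (0.29 ± 0.05, adjusted p = 6.07e-05) and Gpr34 (0.26 ± 0.05, adjusted p = 3.05e-04) passed as well, while Cx3cr1 (0.21 ± 0.07, adjusted p = 0.0939) and Olfml3 (0.06 ± 0.06, adjusted p = 0.547) did not. Cx3cr1 passed with DESeq2 (0.22), no filter (0.23), an offset for transcript length (0.24) and without CKO replicate 1 (0.31) or AD WT replicate 2 (0.28). The call of Tmem119 was lost without AD CKO replicate 2 (0.31). Scaling to the pan-myeloid genes left 4 calls, those of Siglech (0.45 ± 0.06, adjusted p = 6.42e-07), Fcrls (0.38 ± 0.05, adjusted p = 1.88e-06), Selplg (0.23 ± 0.05, adjusted p = 0.00108) and Tmem119 (0.19 ± 0.06, adjusted p = 0.0206), and turned Olfml3 to −0.10 ± 0.05 (adjusted p = 0.264), with the median of all genes at −0.16.

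Other genes of the homeostatic state were read from a list of 25 that holds no member. In CKO against WT microglia 1 rose and 17 fell, with a median log2 fold change of −0.40, against 0.038 over all genes tested. The crystallin gene Crybb1 (−2.38 ± 0.07), the uroplakin gene Upk1b (−2.15 ± 0.07) and Csf1r, the receptor gene for colony stimulating factor 1 (−0.81 ± 0.03), fell. In AD WT against WT 0 rose and 22 fell, with a median log2 fold change of −0.29, against −0.017 over all genes tested, with Crybb1 at −1.03 ± 0.06, Ecscr at −0.83 ± 0.05 and the adhesion receptor gene Adgrg1 at −0.52 ± 0.04. With the knockout within the AD model 6 rose and 13 fell, with a median log2 fold change of −0.14, against −0.002 over all genes tested, with Crybb1 at −1.53 ± 0.07. With the AD model on the knockout 1 rose and 7 fell, with a median log2 fold change of −0.04, against −0.0013 over all genes tested, and Sall1, the gene of a microglial identity factor, fell (−0.31 ± 0.04). The interaction was higher in 15 and lower in 0 of the 25, with a median of 0.22, against 0.0076 over all genes tested. Of all genes 5.53% were called higher, and 40.3% of those at 500 CPM or more. The 20 pan-myeloid genes leaned the same way, with 7 higher, 1 lower and a median of 0.13.

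Genes that act with the ADP receptors were followed in a list of 11 purinergic receptors and nucleotide-degrading enzymes. In CKO against WT microglia 7 rose and 2 fell, with a median log2 fold change of 0.28, against 0.038 over all genes tested. Entpd1, the gene of the ectoenzyme CD39 that degrades ATP and ADP, fell (−0.61 ± 0.04), and the receptor genes P2rx4 (0.45 ± 0.05), P2ry2 (1.80 ± 0.19) and Adora1 (1.78 ± 0.13) rose. The summed level of the list was nonetheless lower, at 1445 to 1459 CPM in CKO and 1614 to 1623 CPM in WT. Neuron, astrocyte and neutrophil markers were higher in the same CKO libraries, and their part in these rises was not tested. Within the AD model 5 rose and 1 fell, with a median log2 fold change of 0.35, against −0.002 over all genes tested in AD CKO against AD WT, with Entpd1 at −0.48 ± 0.04 and Adora3, an adenosine receptor gene, at 0.52 ± 0.06. With the AD model alone 4 rose and 4 fell, with a median log2 fold change of 0.13, against −0.017 over all genes tested, P2rx4 at 0.49 ± 0.05 and Adora3 at −0.43 ± 0.06. Between AD CKO and CKO 1 rose and 2 fell, with a median log2 fold change of −0.11, against −0.0013 over all genes tested, P2rx4 at 0.48 ± 0.05.

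Among 12 ligands, adaptors and partners of the members, 11 were tested in microglia. Kcnk13, the gene of the potassium channel THIK-1, rose with the knockout both without (0.53 ± 0.05) and within the AD model (0.74 ± 0.05). Tyrobp fell with the knockout (within the AD model −0.78 ± 0.04) and rose with the AD model (0.74 ± 0.04 with Rack1 intact and 0.48 ± 0.04 without it). Cx3cl1 rose with the AD model (0.87 ± 0.16) and fell with the knockout within it (−0.59 ± 0.16). Over the list 3 rose and 4 fell, with a median log2 fold change of −0.11, against 0.038 over all genes tested in CKO against WT. The counts were 5 up and 2 down in AD WT against WT, 2 up and 3 down in AD CKO against AD WT, and 2 up and 1 down in AD CKO against CKO.

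The disease-associated genes moved in other proportions than the members. In AD CKO against CKO 19 rose and 0 fell, with a median log2 fold change of 1.04, against −0.0013 over all genes tested, although only 3 members fell there. In CKO against WT 9 rose and 8 fell, with a median log2 fold change of 0.01, against 0.038 over all genes tested, although 8 members fell, with Axl, a phagocytic receptor tyrosine kinase gene, at 1.69 ± 0.04, the chemokine gene Ccl6 at −1.88 ± 0.05, Ank at −1.19 ± 0.04 and the cystatin gene Cst7 at −0.95 ± 0.04. Between AD CKO and AD WT 8 rose and 7 fell, with a median log2 fold change of 0.06, against −0.002 over all genes tested, with Spp1, the gene of osteopontin, at 1.06 ± 0.04 and Ccl6 at −1.35 ± 0.04.

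The average pattern of the 9 members over the 8 microglia libraries was compared with 10789 other genes with a mean of at least 5 CPM. Likeness was measured as the root mean square difference of centred log2 CPM, where a smaller value is more alike, and it carries no test. The nearest genes are close by selection, because they were taken as the smallest differences among so many genes. The nearest genes were Lgmn, the gene of the lysosomal protease legumain (0.0231), Etv5, which encodes an ETS transcription factor (0.0266), 9630028I04Rik (0.0294), the junction adhesion gene F11r (0.0456), the calmodulin gene Calm2 (0.0461), Ube2e3 (0.0494), Ccng2 (0.0504) and Phyhd1 (0.0512). Lgmn stood at −0.76 in CKO against WT and −0.27 in AD WT against WT, and 9630028I04Rik averaged only 6.42 CPM. The members themselves were spread around that average, from Selplg (0.0409) and Tmem119 (0.0925), which lay closest, to P2ry13 (0.405) and Siglech (0.533), which lay farthest.

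In the astrocyte libraries the members were detected at much lower levels. Mean CPM in microglia was 23.3 to 57.5 times that in astrocyte libraries for AD CKO, 11 to 29.5 times for CKO, 37.2 to 78.2 times for AD WT and 95.7 to 169 times for WT, where the 2 cell types were scaled separately and no test was made. The 9 genes together summed to 612 and 618 CPM in AD CKO, 966 and 1018 CPM in CKO, 462 and 461 CPM in AD WT and 229.9 and 231 CPM in WT astrocyte libraries. The pan-myeloid genes summed to 1376 and 1333 CPM in AD CKO, 2414 and 2314 CPM in CKO, 1187 and 1139 CPM in AD WT and 335 and 342 CPM in WT astrocyte libraries. Both sums were highest in CKO and lowest in WT, and CKO astrocyte libraries also had the lowest astrocyte markers (8781 to 8952 CPM in CKO, against 20581 to 20937 CPM in WT). Immediate early and dissociation genes summed to 3113 to 3210 CPM in CKO and 1061 to 1067 CPM in WT. Endothelial markers summed to 3536 to 3656 CPM in CKO and 1222 to 1250 CPM in WT, and neutrophil markers to 125 to 136 and 49.6 to 52.0 CPM. Oligodendrocyte markers summed to 12996 to 13335 CPM in CKO and 14125 to 14273 CPM in WT. The part of these markers in the members' values was not tested.

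**Figure D3:**
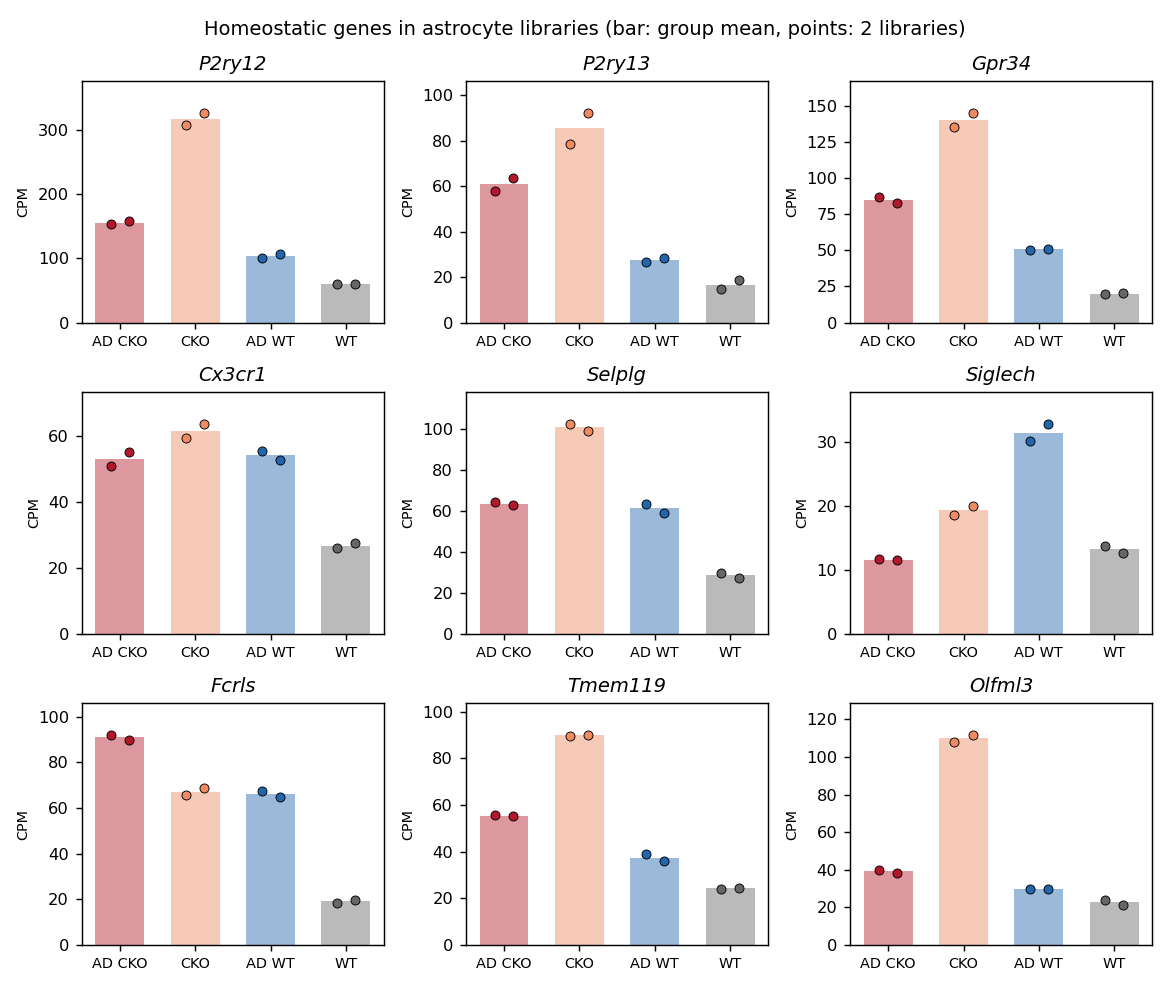
CPM of the 9 homeostatic genes in astrocyte libraries, in 4 groups of 2 libraries; bars are group means, points are libraries, and each panel has its own axis from 0. CKO is the highest group for 7 genes, Fcrls is highest in AD CKO, and Siglech is highest in AD WT.

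In CKO against WT astrocyte libraries all 9 members rose, and for all but Gpr34 the sign reversed when scaled to the pan-myeloid genes. Of all 20116 genes tested, 31.6% were called higher and 32.4% lower. The compared libraries did not overlap for 81.1% of all genes and for 9 of the 9 members. P2ry12 had 153 and 158 CPM in AD CKO, 308 and 326 CPM in CKO, 99.6 and 107 CPM in AD WT and 59.7 and 60.1 CPM in WT astrocyte libraries, and CKO differed from WT by a log2 fold change of 2.40 ± 0.05 (adjusted p = 1.13e-19). Gpr34 rose most, with 86.7 and 83.0 CPM in AD CKO, 135 and 146 CPM in CKO, 50.4 and 51.2 CPM in AD WT and 19.7 and 20.1 CPM in WT astrocyte libraries and a log2 fold change of CKO over WT of 2.82 ± 0.07 (adjusted p = 1.34e-19). Siglech rose least, with 11.6 and 11.5 CPM in AD CKO, 18.5 and 20 CPM in CKO, 30.0 and 32.8 CPM in AD WT and 13.7 and 12.6 CPM in WT astrocyte libraries and a log2 fold change of CKO over WT of 0.55 ± 0.10 (adjusted p = 3.30e-05), and AD WT was its highest group. P2ry13 (2.36 ± 0.11), Olfml3 (2.29 ± 0.07), Tmem119 (1.89 ± 0.07), Selplg (1.83 ± 0.07), Fcrls (1.81 ± 0.07) and Cx3cr1 (1.21 ± 0.07) lay between.

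Relative to the pan-myeloid genes, 19 of which rose in these libraries with a median of 2.42, 6 members fell in CKO against WT. Siglech fell most (−1.99 ± 0.11, adjusted p = 7.80e-21), then Cx3cr1 (−1.34 ± 0.09, adjusted p = 3.12e-18), Fcrls (−0.73 ± 0.09, adjusted p = 3.53e-10), Selplg (−0.72 ± 0.08, adjusted p = 6.47e-11), Tmem119 (−0.65 ± 0.09, adjusted p = 2.93e-09) and Olfml3 (−0.25 ± 0.09, adjusted p = 0.00593). P2ry12 (−0.14 ± 0.07, adjusted p = 0.0704) and P2ry13 (−0.19 ± 0.11, adjusted p = 0.115) did not pass and Gpr34 rose (0.27 ± 0.09, adjusted p = 0.00303), while the median of all genes stood at −2.53. As a share of the pan-myeloid sum, Siglech made up 0.767 and 0.862% in CKO and 4.10 and 3.67% in WT astrocyte libraries, and 1.58 and 1.47% in CKO and 5.28 and 5.12% in WT microglia. Cx3cr1 made up 2.46 and 2.76% in CKO and 7.74 and 8.02% in WT astrocyte libraries, and 5.61 and 4.73% in CKO and 10.2 and 9.77% in WT microglia. For both genes the share was lower in CKO than in WT in every library of both cell types.

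**Figure D4:**
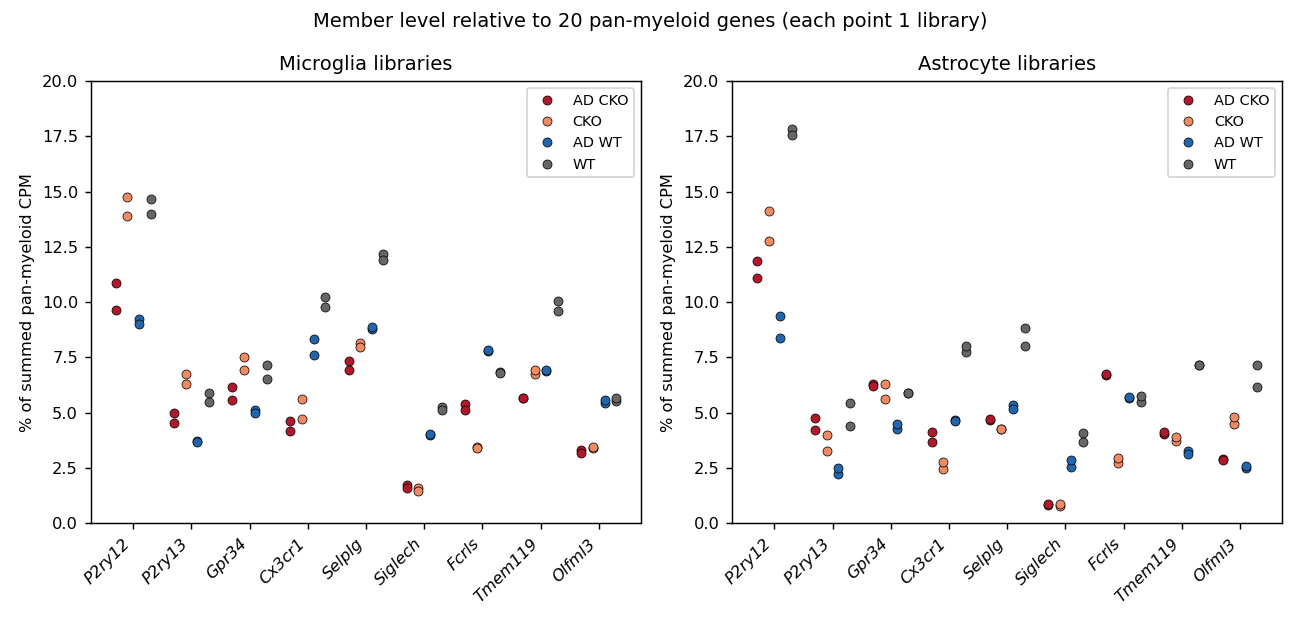
Level of each member as a percentage of the summed CPM of 20 pan-myeloid genes, in microglia libraries (left) and astrocyte libraries (right), with 1 point per library. Siglech lies under 2% in all AD CKO and CKO libraries of both cell types and above it in all AD WT and WT libraries.

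In AD WT against WT astrocyte libraries all 9 members rose as well, from Olfml3 (0.40 ± 0.07, adjusted p = 2.26e-04) to Fcrls (1.79 ± 0.07, adjusted p = 4.03e-15), while 8 of them were lower relative to the pan-myeloid genes. Of all 20116 genes tested, 20% were called higher and 18% lower. The compared libraries did not overlap for 69.2% of all genes and for 9 of the 9 members. All 20 pan-myeloid genes rose, with a median of 1.75, and relative to them Fcrls did not pass (0.11 ± 0.09, adjusted p = 0.235). Olfml3 (−1.28 ± 0.09, adjusted p = 3.35e-17) and Tmem119 (−1.06 ± 0.09, adjusted p = 8.73e-15) were then lowest. Fcrls, the member that rose with the AD model in microglia, had 92.0 and 89.7 CPM in AD CKO, 65.7 and 68.6 CPM in CKO, 67.4 and 64.9 CPM in AD WT and 18.4 and 19.7 CPM in WT astrocyte libraries. As a share of the pan-myeloid sum it stood at 5.68 and 5.70% in AD WT and 5.50 and 5.76% in WT astrocyte libraries. All 8 oligodendrocyte markers fell in this comparison, with sums of 6722 to 6914 CPM in AD WT and 14125 to 14273 CPM in WT. Their part in the members' changes was not tested.

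In AD CKO against AD WT astrocyte libraries 6 members rose, Siglech fell, and Cx3cr1 (−0.03 ± 0.07) and Selplg (0.05 ± 0.06) did not pass. With an offset for transcript length both passed, Cx3cr1 at −0.16 (adjusted p = 0.0386) and Selplg at 0.16 (adjusted p = 0.0171). Of all 20116 genes tested, 25.1% were called higher and 27% lower. The compared libraries did not overlap for 76% of all genes and for 7 of the 9 members. P2ry13 rose most (1.14 ± 0.10, adjusted p = 3.95e-07), with 58.1 and 63.6 CPM in AD CKO, 78.6 and 92.5 CPM in CKO, 26.7 and 28.4 CPM in AD WT and 14.8 and 18.6 CPM in WT astrocyte libraries. Siglech fell (−1.44 ± 0.09, adjusted p = 2.27e-11), although the pan-myeloid genes had a median of 0.27 with 12 up and 2 down. These directions were the same relative to the pan-myeloid genes for P2ry12 (0.39 ± 0.07), P2ry13 (0.95 ± 0.11), Gpr34 (0.54 ± 0.08) and Siglech (−1.64 ± 0.11) as for Fcrls (0.26 ± 0.08), Tmem119 (0.37 ± 0.08) and Olfml3 (0.20 ± 0.09), while Cx3cr1 then fell (−0.23 ± 0.08, adjusted p = 0.0209) and the sign of Selplg reversed (−0.14 ± 0.08). The astrocyte libraries of these groups share the sign of the microglia comparison for P2ry12, P2ry13, Gpr34 and Siglech, and have the opposite sign for Fcrls, Tmem119 and Olfml3. Astrocyte markers summed to 12747 to 12884 CPM in AD CKO and 19649.7 to 20279 CPM in AD WT, and oligodendrocyte markers to 18659 to 18819 CPM in AD CKO and 6722 to 6914 CPM in AD WT. Their part in these values was not tested.

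In AD CKO against CKO astrocyte libraries 8 members fell and Fcrls rose (0.44 ± 0.06, adjusted p = 1.49e-06), Cx3cr1 and P2ry13 reversing when scaled to the pan-myeloid genes. Of all 20116 genes tested, 31.4% were called higher and 28.4% lower. The compared libraries did not overlap for 79.9% of all genes and for 9 of the 9 members. Olfml3 fell most (−1.49 ± 0.07, adjusted p = 3.25e-14), with 40.1 and 38.2 CPM in AD CKO, 108 and 112 CPM in CKO, 29.7 and 29.7 CPM in AD WT and 24.0 and 21.1 CPM in WT astrocyte libraries. Relative to the pan-myeloid genes, of which 14 of 20 fell with a median of −0.83, the calls left were those of Fcrls (1.10 ± 0.08, adjusted p = 5.48e-16), Cx3cr1, which turned to a rise (0.45 ± 0.08, adjusted p = 9.11e-06), Olfml3 (−0.83 ± 0.08, adjusted p = 5.25e-12) and P2ry12 (−0.36 ± 0.07, adjusted p = 1.84e-05). The unscaled fall of Cx3cr1 was −0.22 ± 0.07 (adjusted p = 0.00861) and its call was lost without AD CKO replicate 1 (−0.14) or CKO replicate 2 (−0.16). Of the 12 immediate early and dissociation genes 11 fell, with sums of 1227 to 1276 CPM in AD CKO and 3113 to 3210 CPM in CKO. Astrocyte markers summed to 12747 to 12884 CPM in AD CKO and 8781 to 8952 CPM in CKO. The part of these genes in the members' changes was not tested. The interaction was negative and passed for all 9 members, and turned positive for all 9 when scaled to the pan-myeloid genes. Of all 20116 genes tested, 29.5% were called higher and 28.3% lower. It ran from P2ry13 (−1.21 ± 0.15, adjusted p = 7.08e-06) to Gpr34 (−2.08 ± 0.09, adjusted p = 1.49e-14). Scaled to the pan-myeloid genes it ran from Gpr34 (0.27 ± 0.12) to P2ry13 (1.14 ± 0.16), with the median of all genes at 2.32.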

How the data were processed

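RNA from mouse microglia and astrocytes was sequenced in 16 libraries (total RNA by TRIzol, SMART-Seq v4 amplification and Illumina paired-end sequencing, per the labels' protocols). The deposited tables, made by the authors, hold unscaled expected counts for each gene, which are estimates and can be fractional. The submitters' processing notes name fastp, HISAT2, StringTie and mm10, without versions; the counting step and the annotation release are not given in the sources used here. Between 27.0% and 33.6% of the non-zero values of a library were fractional.

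Expected counts were rounded and each cell type fitted alone over its 8 libraries in R 4.3.3 with edgeR 4.0.16 (filterByExpr, TMM, robust quasi-likelihood F-test, two-sided, Benjamini-Hochberg over all genes tested). The error given with a log2 fold change is its SE and with a level its SD. The common biological coefficient of variation was 0.0678 in microglia and 0.0579 in astrocyte libraries. The scripts were tested on simulated data. Alternatives were RLE factors, DESeq2 1.42.0, other filters, the compared groups alone, a replicate block, scaling to the pan-myeloid genes (the median log ratio over the list), an offset for transcript length (longest transcript, GENCODE M21) and leaving out each library. All members were named; of each other list up to 4 genes with the smallest p that passed in a comparison were named, though some of these are not reported here, and other genes named here were chosen after their values were seen. The members and lists were chosen with earlier results of these data known.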

Additional observations from a re-analysis of the deposited data

Results flagged for a closer look

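The effect of the knockout differed with the AD model by a test of the difference itself (the interaction in edgeR). In microglia this held for Siglech (0.61), Fcrls (0.54), Selplg (0.39), Tmem119 (0.36), P2ry12 (0.29), P2ry13 (0.29) and Gpr34 (0.26), all on the log2 scale, beside 5.53% of all genes called higher and 40.3% of those at 500 CPM or more. Scaled to the pan-myeloid genes P2ry12 (0.13), P2ry13 (0.13) and Gpr34 (0.096) no longer passed. In astrocyte libraries it held for Gpr34 (−2.08), Siglech (−1.99), Olfml3 (−1.89), P2ry12 (−1.81), Selplg (−1.77), Fcrls (−1.36), Tmem119 (−1.32), Cx3cr1 (−1.24) and P2ry13 (−1.21). Of all genes tested there, 29.5% were called higher and 28.3% lower. All 9 were positive when scaled to the pan-myeloid genes, but below the median of all genes, which stood at 2.32 on that scale.

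Several members moved one way in every microglia library of a comparison and the other way in every astrocyte library, with groups that did not overlap. The difference between the cell types was not tested, because they were fitted separately. Scaled to the pan-myeloid genes, the astrocyte value turned below 0 for all the members listed here but Gpr34 in CKO against WT, and for all listed in AD WT against WT, so that most of the opposition was not seen on that scale. It stayed above 0 for those listed in AD CKO against AD WT. The microglia values of P2ry12 (0.02) and Gpr34 (0.10) in CKO against WT turned above 0 on that scale. Gpr34 (0.27 in astrocyte libraries) was then no longer opposed, while the signs of P2ry12 (−0.14 in astrocyte libraries) still differed. In AD CKO against CKO, Siglech then stood at 0.17 in microglia and −0.07 in astrocyte libraries, and Olfml3 at −0.03 and −0.83. Over all genes, groups did not overlap for 64.3% in microglia and 81.1% in astrocyte libraries in CKO against WT, and for 57% and 69.2% in AD WT against WT. These shares were 65.5% in microglia and 76% in astrocyte libraries in AD CKO against AD WT, and 52.7% and 79.9% in AD CKO against CKO. The log2 fold changes follow, microglia first and astrocyte libraries second. In CKO against WT these were Siglech (−1.96 and 0.55), Fcrls (−1.18 and 1.81), Cx3cr1 (−1.14 and 1.21), Olfml3 (−0.88 and 2.29), Selplg (−0.76 and 1.83), Tmem119 (−0.71 and 1.89), P2ry12 (−0.19 and 2.40) and Gpr34 (−0.11 and 2.82). In AD WT against WT they were P2ry12 (−0.58 and 0.79), P2ry13 (−0.55 and 0.72), Tmem119 (−0.43 and 0.62), Selplg (−0.37 and 1.11), Gpr34 (−0.36 and 1.35), Siglech (−0.30 and 1.26) and Cx3cr1 (−0.25 and 1.02). In AD CKO against AD WT they were Olfml3 (−0.82 and 0.40), Fcrls (−0.64 and 0.46) and Tmem119 (−0.35 and 0.57). In AD CKO against CKO they were Siglech (0.31 and −0.73) and Olfml3 (0.11 and −1.49), the microglia value of Olfml3 not passing the test.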

How the results depend on the processing

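The calls of the members kept their count within 1.5 times under every alternative except scaling to the pan-myeloid genes. That scaling changed the question to the level relative to other myeloid genes. It moved the members called to 4 (7 without it) in the microglia interaction and to 4 (9 without it) in astrocyte AD CKO vs CKO, and all genes called in astrocyte AD WT vs WT to 17863 (7648 without it). The log2 fold changes that it reversed follow. In microglia CKO vs WT they were P2ry12 0.022 and Gpr34 0.10. In microglia AD CKO vs CKO they were Selplg −0.12 and Olfml3 −0.026. In microglia interaction they were Olfml3 −0.099. In astrocyte CKO vs WT they were P2ry12 −0.14, P2ry13 −0.19, Cx3cr1 −1.34, Selplg −0.72, Siglech −1.99, Fcrls −0.73, Tmem119 −0.65 and Olfml3 −0.25. In astrocyte AD WT vs WT they were P2ry12 −0.90, P2ry13 −0.97, Gpr34 −0.33, Cx3cr1 −0.66, Selplg −0.58, Siglech −0.42, Tmem119 −1.06 and Olfml3 −1.28. In astrocyte AD CKO vs AD WT they were Selplg −0.14. In astrocyte AD CKO vs CKO they were P2ry13 0.17 and Cx3cr1 0.45. In astrocyte interaction they were P2ry12 0.53, P2ry13 1.14, Gpr34 0.27, Cx3cr1 1.11, Selplg 0.57, Siglech 0.35, Fcrls 0.99, Tmem119 1.03 and Olfml3 0.45. Values near 0 also turned under other settings, and none of them passed the test before or after. P2ry13 in microglia CKO vs WT stood at −0.01 with RLE size factors, −0.01 with DESeq2, −0.023 with no filter on low counts, −0.012 with the compared groups alone, −0.015 with an offset for transcript length, −0.015 without AD CKO replicate 1, −0.024 without CKO replicate 1. Olfml3 in microglia AD WT vs WT stood at −0.0079 without WT replicate 1. Selplg in microglia AD CKO vs CKO stood at −0.0009 with the filter of 1 CPM in 2 libraries. Cx3cr1 in that comparison stood at 0.072 without CKO replicate 1. Cx3cr1 in astrocyte AD CKO vs AD WT stood at 0.0023 with RLE size factors, 0.0023 with DESeq2, 0.0081 with the compared groups alone, 0.048 without AD CKO replicate 1, 0.018 without AD WT replicate 1. Over all left-out libraries these ranged from −0.024 to 0.014 for P2ry13 in microglia CKO vs WT, from −0.0079 to 0.11 for Olfml3 in microglia AD WT vs WT, from 0.013 to 0.047 for Selplg in microglia AD CKO vs CKO, from −0.12 to 0.072 for Cx3cr1 in that comparison, from −0.082 to 0.048 for Cx3cr1 in astrocyte AD CKO vs AD WT. Leaving out 1 library left 7 to 8 members called in CKO vs WT, 7 to 8 members called in AD WT vs WT, 8 to 9 members called in AD CKO vs AD WT, 4 to 6 members called in AD CKO vs CKO and 6 to 8 in the interaction in microglia, and 9 in CKO vs WT, 9 in AD WT vs WT, 7 in AD CKO vs AD WT, 8 to 9 in AD CKO vs CKO and 9 in the interaction in astrocyte libraries. All genes called then ranged over 4620 to 5875 in CKO vs WT, 2118 to 3355 in AD WT vs WT, 3904 to 5764 in AD CKO vs AD WT, 1707 to 2710 in AD CKO vs CKO and 1385 to 1968 in the interaction in microglia, and over 11379 to 13167 in CKO vs WT, 5166 to 8080 in AD WT vs WT, 8456 to 10827 in AD CKO vs AD WT, 10246 to 12324 in AD CKO vs CKO and 10629 to 11242 in the interaction in astrocyte libraries. Without AD WT replicate 1 or 2 the microglia AD WT vs WT count fell to 2180 or 2118 and that of the interaction to 1457 or 1385, under counts of 3343 and 2202 with all libraries. A library left alone in its group takes its spread from the remaining groups. The replicate numbers were not taken as pairs: deviations of same-numbered libraries had Pearson correlations between −0.03 and 0.05 across genes, and Spearman correlations between −0.0041 and 0.13 that were positive for all astrocyte pairs. With a replicate block the fall of Cx3cr1 in microglia AD WT vs WT (−0.25) lost its call and the rise of Olfml3 in AD CKO vs CKO (0.12) gained it, and the other calls of members were as without it. With 2 libraries per group, the standard errors rest on a spread shared by all groups of a cell type.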
